A study of Mus musculus with 6 samples.

Results

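The cytosolic ribosomal proteins build the small (40S) and large (60S) subunits of the ribosome together with ribosomal RNA, and their genes were followed here in CD4+ dendritic cells (DC) of the spleen with and without the transcription factor Runx3. Members were the genes whose symbol begins with Rpl or Rps and a digit, together with Rpsa, Rplp0, Rplp1 and Rplp2. Ribosomal S6 kinases and pseudogene symbols were left out, and only probe sets with a single gene symbol were used. This rule, which used no measured difference between genotypes, found 63 genes on 219 probe sets, out of 19938 such genes and 35399 probe sets in all. Of these genes, 38 belonged to the large subunit, 23 to the small subunit, and Rps19bp1 and Rps23rg1 carry such a symbol without being subunits. The probe set with the highest mean over all arrays stood for each gene.

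RNA came from 3 Runx3-/- and 3 WT (Runx3 +/+) male mice aged 6 weeks, in 3 litters that each gave 1 animal of either genotype. Replicate numbers name the litter. The Runx3-/- mice lacked the gene in the germ line, so every cell of the animal was affected and not only the DC. The cells were enriched on magnetic beads and sorted as CD11c+ MHCII+ CD4+ DC, and the labels also name an Esam population without saying whether Esam entered the gate. Each array gave a log2 signal per probe set, already normalized when deposited, and a log2 value of 6.5 was taken as background.

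Ribosomal protein mRNAs are among the most abundant messages of a cell, and the subunits are made in matched amounts because each ribosome holds a single copy of nearly all of them. Many of these mRNAs begin at a cytosine followed by a run of pyrimidines, the terminal oligopyrimidine (TOP) motif, through which the mTOR pathway controls their translation without a change in their amount. An mRNA level therefore speaks only of transcription and mRNA stability, not of ribosome number or protein synthesis.

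The genotype labels held for the targeted gene. Runx3 gave 9.16, 9.30 and 9.16 in Runx3-/- arrays, against 11.24, 11.22 and 11.11 in WT arrays, a log2 change of -1.98 (SE 0.08, limma adjusted p = 0.0027). With 3 arrays against 3, an exact permutation test (two-sided) cannot give a p below 0.1, the value it gave here. With the litter as a block the adjusted p was 0.061, and without WT 1 it was 0.053. The arrays were alike, with medians of 6.57 to 6.65 and 50.66% to 51.33% of probe sets at or above background. All 10 classical DC markers measured were above background, while 5 of 7 T cell markers and all 7 NK cell and all 3 erythroid markers lay below it in every array. The DC markers, summed on the linear scale, were at log2 16.09 to 16.18 in Runx3-/- arrays and 16.18 to 16.26 in WT arrays. Of the 10, 8 had a negative change and 0 passed an adjusted p of 0.05 (limma). For 4 (Itgax, H2-Eb1, Flt3 and Zbtb46) all Runx3-/- values lay below all WT values, beside 14.9% of all tested probe sets. Many, but not all, red pulp macrophage markers moved with genotype. Their summed level, as log2 of the summed linear signals, was 13.99 to 14.25 in Runx3-/- arrays and 13.17 to 13.56 in WT arrays. Of 13 markers 11 were tested, with 7 higher at an adjusted p of 0.05 (limma) and 0 of 11 with the litter as a block. Adgre1 (0.01) and Hmox1 (0.22) overlapped between the genotypes, and Cd163 and Vsig4 were below background in every array. Of 8 B cell markers 6 were above background, and they differed in both directions: their summed level was 11.14 to 11.27 in Runx3-/- arrays and 10.98 to 11.29 in WT arrays, with Blk lower (-1.09, adjusted p = 0.023, limma; not called with the litter block) and Cd79b at 0.58 (adjusted p = 0.077, limma), while Pax5 and Ebf1 were below background. The summed monocyte and neutrophil markers were at 12.3 to 12.42 in Runx3-/- arrays and 11.55 to 12.02 in WT arrays, carried by Csf1r and Ccr2, and the other 6, among them S100a8, Ly6g and Mpo, were below background. Summed plasmacytoid DC markers spread from 10.59 to 11.93 in Runx3-/- arrays, against 10.43 to 10.53 in WT arrays, and Siglech stood at 7.46, 8.18 and 10.18 in Runx3-/- 1, 2 and 3. In sorted bulk RNA, fewer cells of a type and less RNA per cell cannot be told apart, and the part of these markers in the ribosomal values was not tested.

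Of the 63 genes, 58 reached background in at least 1 array and were tested, 35 of the large and 22 of the small subunit plus Rps19bp1, a nucleolar binding partner of Rps19. The other 5 were below 6.5 in all 6 arrays. These were Rpl10l, a copy of Rpl10 used in the male germ line, with a mean of 5.02, Rpl39l, also known from testis, with 5.20, Rpl3l, the striated-muscle form of Rpl3, with 5.22, Rps4l with 5.87, and Rps23rg1, a retroposed copy of Rps23, with 5.66. All are paralogs or copies, and no canonical subunit among the 63 was below background. The tested members closest to the background were Rpl22, with a mean of 7.99, and Rplp2, with 8.04, and single values of the tested members ran from 7.79 to 13.78. The highest signals on the arrays were 14.22 to 14.42, so many ribosomal probe sets lay in the upper range of the scale. Whether changes were compressed there was not tested. The strongest probe set stood for each gene, and weaker ones of the same gene differed in either direction. Rplp0 had -0.05 at a mean of 13.18 and -0.18 at 12.50, and Rps2 had -0.04 at 12.69 and -0.13 at 11.05. Rpsa had -0.18 at 11.60 and 0.03 at 10.24, and Rpl13 had -0.20 at 10.83 and -0.14 at 10.11. A further 20 ribosomal symbols, among them Rpl3, Rpl11, Rpl32, Rps16, Rps24 and Rps27, occurred only on probe sets assigned to several genes and were not analysed one by one.

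The ribosomal genes were nearly level between the genotypes. No member passed an adjusted p of 0.05 (limma, Benjamini-Hochberg over all 19149 tested probe sets), where 1.56% of all tested probe sets did, 0.856% higher and 0.7% lower in Runx3-/- DC. At an unadjusted p of at most 0.05 there was 1 member, Rpl12, lower in Runx3-/- DC, against 10.3% of all tested probe sets lower and 5.59% higher. A further pair of thresholds, an unadjusted p of at most 0.05 with a change of 1.5-fold or more, was met by 0 members and by 3.95% of all tested probe sets, 2.01% higher and 1.94% lower. Log2 changes of members ran from -0.42 to 0.06, with a median of -0.036, beside a median of -0.035 over all tested probe sets.

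The changes were small in absolute terms as well. The median size of the log2 change, without its sign, was 0.042 over the members and 0.12 over all tested probe sets. A change of less than 0.1 in either direction was found in 46 of 58 members (79.31%), compared with 43.64% of all tested probe sets. Because ribosomal genes gave strong signals, the same values were taken over probe sets with a mean of at least 10. There the median size was 0.046 for 49 members and 0.086 for all 5338 such probe sets, and 79.59% of those members and 55.02% of those probe sets stayed under 0.1. Levels above 10 were not matched between the members and these probe sets, so the part of signal level in the smaller changes was not tested. The same holds for the intervals and spreads compared below.

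A p above the threshold does not show that expression was equal, so the intervals were read as well. The 95% confidence interval of the log2 change lay wholly inside a 1.5-fold change (0.58 on the log2 scale) for 57 of 58 members, compared with 72.89% of all tested probe sets. The exception was Rpl12. The median half-width of the interval was 0.18 for the members and 0.26 for all tested probe sets, and the median SD among arrays of a genotype was 0.069 and 0.136. With a mean of at least 10, the interval lay inside the limit for 49 of 49 members and 87.02% of 5338 probe sets. The median half-width was 0.17 and 0.21 there, and the median SD 0.062 and 0.094. Rps3a1, a protein of the 40S body, had the widest spread of those inside the limit, with 10.28, 10.47 and 10.63 in Runx3-/- arrays and 10.10, 10.31 and 10.98 in WT arrays, and its interval of -0.57 to 0.57 nearly filled it.

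**Figure D1:**
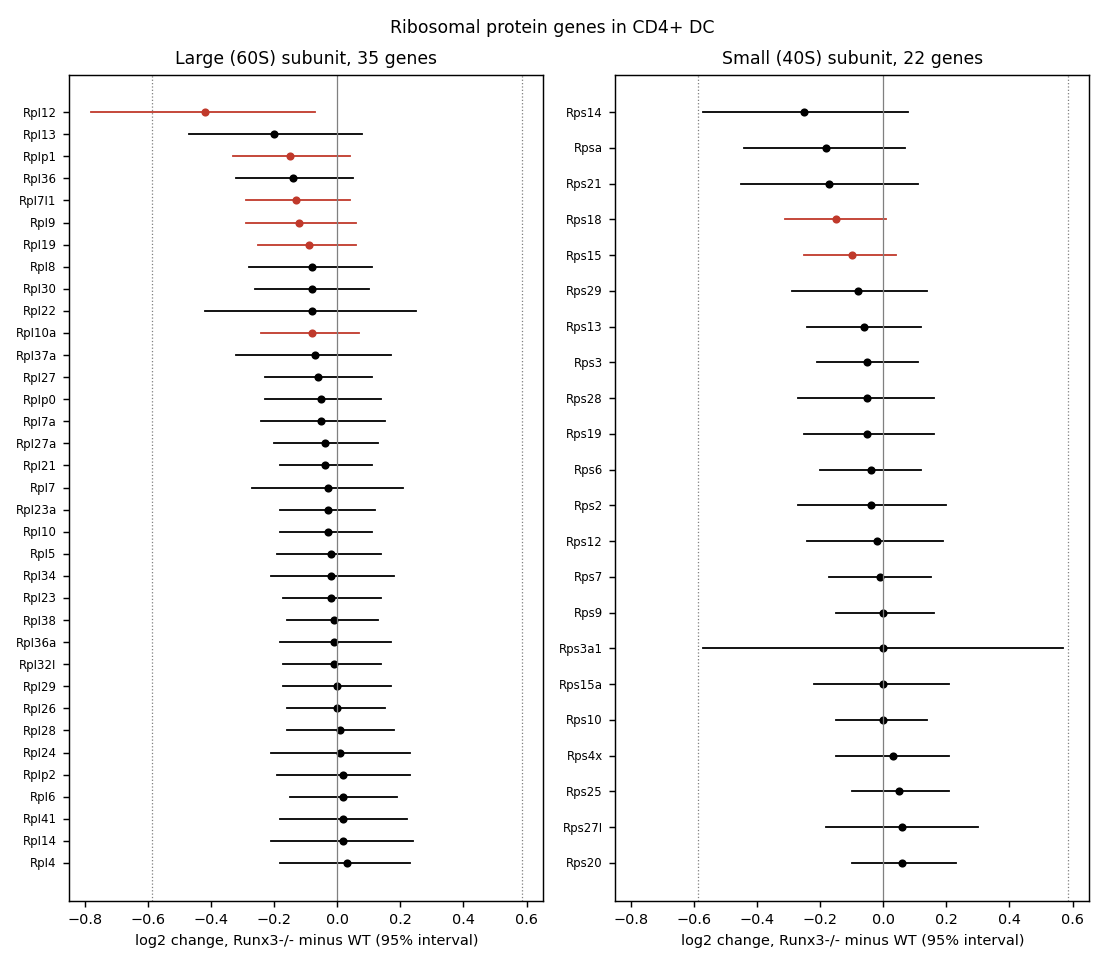
Log2 change (Runx3-/- minus WT) of each tested ribosomal protein gene, with its 95% confidence interval from limma, for the 35 large-subunit genes (left) and the 22 small-subunit genes (right). Dotted lines mark a 1.5-fold change, red marks the 8 genes whose Runx3-/- and WT values did not overlap, and Rpl12 was the only gene whose interval passed the dotted line.

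**Figure D2:**
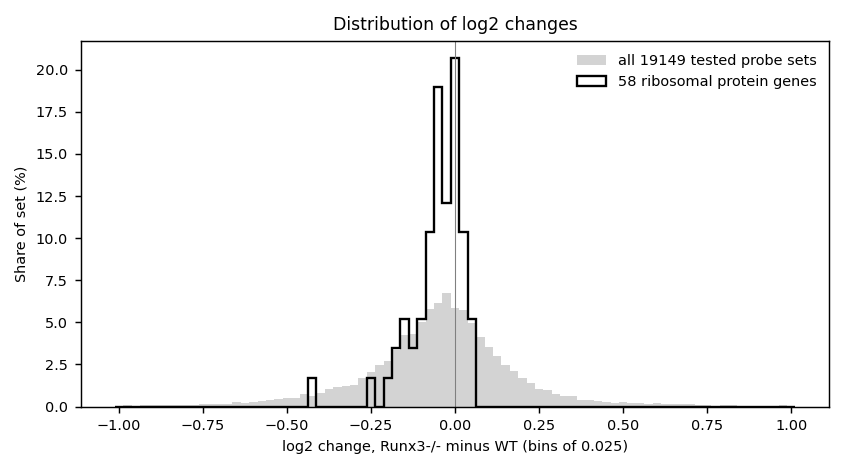
Share of genes or probe sets (%) by log2 change, Runx3-/- minus WT, in bins of 0.025, for the 58 tested ribosomal protein genes (black outline) and all 19149 tested probe sets (gray), with changes outside -1 to 1 not drawn. The ribosomal genes formed a narrow peak just below 0 with a median of -0.036, and Rpl12 stood alone at -0.42.

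Changes leaned to the negative side, by little. A negative log2 change was found for 46 of 58 members (79.31%), and for 59.3% of all tested probe sets. With a mean of at least 10, 79.59% of 49 members and 56.35% of 5338 probe sets were negative. Their medians were -0.036 and -0.018. The lean depended in part on scaling. With quantile normalization of the deposited values 41 of 58 members (70.7%) and 51.5% of all tested probe sets were negative, with medians of -0.034 and -0.006. When every array was centred on its own median, which moves all probe sets of an array alike, 26 of 58 members (44.8%) and 48.7% of all tested probe sets were negative, and both medians were 0.005.

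All 3 Runx3-/- values lay below all 3 WT values for 8 of 58 members (13.79%), and for 14.9% of all tested probe sets. With 1 probe set per gene, as for the members, the share was 18.64% of 9922 tested genes. All 3 Runx3-/- values lay above all 3 WT values for 0 members, for 7.48% of all tested probe sets and for 978 of these 9922 genes. After median centring, 3 members (5.17%) were lower and apart, beside 10.6% of all tested probe sets, and 2 (3.45%) were higher and apart, beside 10.3%.

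The median deviation of the members from their own mean over all arrays was 0, -0.014 and -0.048 in Runx3-/- 1, 2 and 3, and 0.037, 0.023 and 0.008 in WT 1, 2 and 3. Each of the 3 Runx3-/- medians was below each of the 3 WT medians, by small amounts. Over all tested probe sets it was -0.023, -0.007 and -0.029 in Runx3-/- arrays and 0.027, 0.001 and 0.032 in WT arrays. Within litters, the median difference of the members was -0.035, -0.027 and -0.058, and 40, 37 and 41 of 58 members were lower in the Runx3-/- littermate of litters 1, 2 and 3. In 19 members (32.76%) the Runx3-/- value was lower in all 3 litters, beside 27.5% of all tested probe sets, and in 3 (5.172%) it was higher in all 3, beside 15.97% of all tested probe sets. The array with the lowest member median, Runx3-/- 3, was also the one with the highest plasmacytoid DC markers, and without it the member median was -0.024.

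Large and small subunits had similar changes. The 35 large-subunit genes had a median log2 change of -0.032, with 28 negative and 7 positive. The 22 small-subunit genes had a median of -0.037, with 17 negative and 5 positive. Medians of both were 0.009 and 0.004 after median centring. The litters gave no steady order of the subunits: the large-subunit median was -0.037, -0.061 and -0.035 in litters 1, 2 and 3, and the small-subunit median was -0.031, 0.009 and -0.073. Groups did not overlap, with Runx3-/- lower, for 6 large-subunit genes (17.14%) and 2 small-subunit genes (9.091%), beside 14.9% of all tested probe sets. The share was 18.64% over all tested genes taken with 1 probe set each.

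Of the structural elements compared, the P stalk had the widest range of changes. This lateral protuberance of the large subunit recruits and activates the translation factors that hydrolyze GTP, and it consists of Rplp0 at the base with dimers of Rplp1 and Rplp2, anchored next to Rpl12. Rpl12 (probe set 10471550) gave 8.49, 8.72 and 8.18 in Runx3-/- arrays, against 8.99, 8.82 and 8.85 in WT arrays. Every Runx3-/- value was below every WT value, with Runx3-/- 3 lowest by far and Runx3-/- 2 near the WT range. The log2 change was -0.42 (SE 0.15, 95% interval -0.78 to -0.07, 1.34-fold lower), with an unadjusted p of 0.027 and an adjusted p of 0.24 (limma). It was -0.50, -0.09 and -0.67 within litters 1, 2 and 3, and leaving out Runx3-/- 3 reduced it to -0.28.

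The other stalk genes changed less. Rplp1 (probe set 10594248) gave 12.70, 12.62 and 12.72 in Runx3-/- arrays, against 12.87, 12.88 and 12.72 in WT arrays, a log2 change of -0.15 (SE 0.08, adjusted p = 0.42, limma). Its groups were apart only by the margin of litter 3, where the difference was -0.01. Rplp0 (probe set 10436694), the stalk base and a common reference gene in PCR assays, gave 13.15, 13.20 and 13.11 in Runx3-/- arrays, against 13.13, 13.30 and 13.16 in WT arrays. These overlapped, and the log2 change was -0.05 (SE 0.08, adjusted p = 0.81, limma), while a further Rplp0 probe set had -0.18. Rplp2 gave 8.03, 8.09 and 8.05 in Runx3-/- arrays, against 8.05, 8.16 and 7.90 in WT arrays, with a log2 change of 0.02 (SE 0.09).

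The first bases of these genes differ in the motif named above, and the windows are shown because the TOP motif marks the class of mRNA under study. Each runs from 10 bases before the annotated start to 20 bases from it (RefSeq, GRCm38.p6), read 5′ to 3′ on the gene's strand, and capitals mark an unbroken pyrimidine run that begins at the start base:
Rplp2 (chr7:141447641-141447670, plus strand): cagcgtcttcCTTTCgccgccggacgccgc
Rplp0 (chr5:115559457-115559486, plus strand): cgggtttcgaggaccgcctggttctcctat
Rpl12 (chr2:32961702-32961731, plus strand): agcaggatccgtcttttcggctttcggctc
Rplp2 began at a C with further pyrimidines behind it, while no such run began at the annotated start base of Rplp0 or Rpl12. In Rpl12 a pyrimidine run begins at the base directly behind it. The start used in these cells can lie some bases from the annotated one, so these letters do not show that a TOP motif is absent.

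The remaining large-subunit genes whose groups did not overlap differed by 0.08 to 0.13 on the log2 scale. Rpl7l1, a relative of Rpl7 known in human cells from precursors of the large subunit, gave 10.81, 10.80 and 10.70 in Runx3-/- arrays, against 10.88, 10.94 and 10.87 in WT arrays, a log2 change of -0.13 (SE 0.07). Rpl9, which lies near the stalk base, gave 12.83, 12.85 and 12.70 in Runx3-/- arrays and 12.92, 12.93 and 12.88 in WT arrays, a change of -0.12 (SE 0.07). Both changes were under 2 standard errors. Rpl19, which reaches across to the small subunit, gave 13.19, 13.16 and 13.15 in Runx3-/- arrays, against 13.28, 13.28 and 13.21 in WT arrays, a change of -0.09 (SE 0.06). Rpl10a, the protein of the L1 stalk at the tRNA exit side, gave 13.30, 13.24 and 13.22 in Runx3-/- arrays, against 13.35, 13.35 and 13.31 in WT arrays, a change of -0.08 (SE 0.06). Adjusted p for these 4 genes lay between 0.42 and 0.59 (limma).

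Larger differences with overlapping groups were seen for Rpl13 and Rpl36. Rpl13 gave 10.82, 10.87 and 10.52 in Runx3-/- arrays, against 10.95, 11.01 and 10.83 in WT arrays, where WT 3 lay within the Runx3-/- values. Its log2 change was -0.20 (SE 0.11, adjusted p = 0.47, limma), and -0.09 without Runx3-/- 3. Rpl36 gave 11.79, 11.75 and 11.67 in Runx3-/- arrays and 11.89, 11.94 and 11.79 in WT arrays, a change of -0.14 (SE 0.08, adjusted p = 0.45, limma). Rpl13 and Rpl36 were lower in the Runx3-/- animal of each litter. Other large-subunit proteins with well-known roles were level. Rpl5, which carries the 5S ribosomal RNA and binds Mdm2 when ribosome assembly fails, had a log2 change of -0.02, Rpl4, which lines the exit tunnel, 0.03, and Rpl38, linked in mice to translation of Hox mRNAs, -0.01. Rpl22, whose loss in mice blocks T cell development, had -0.08 (SE 0.14), and its paralog Rpl22l1 occurred only on probe sets of several genes.

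**Figure D3:**
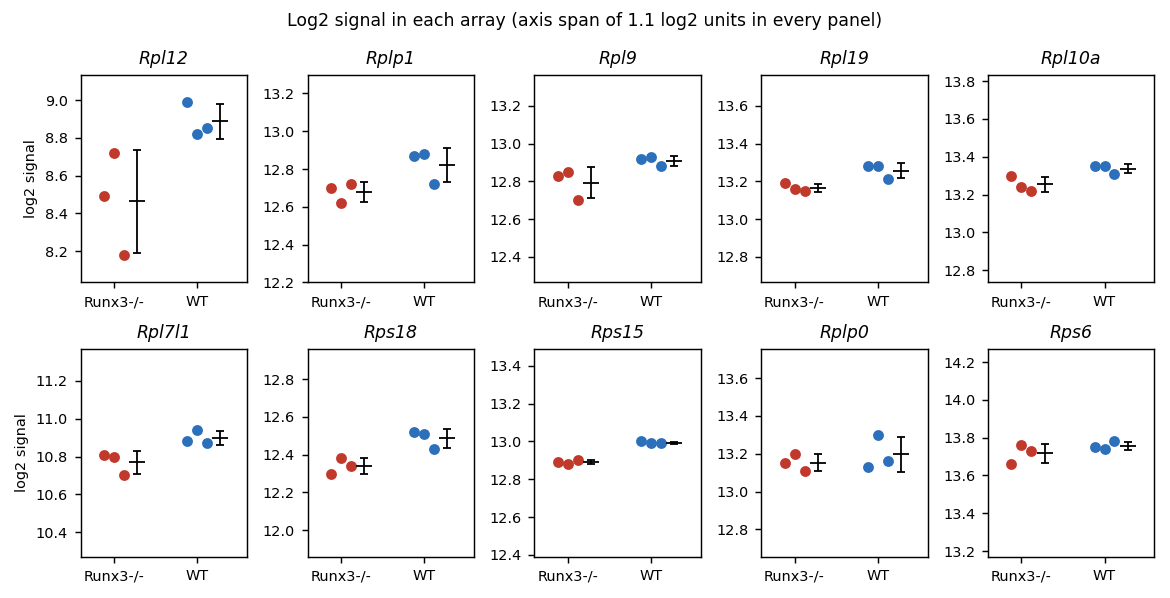
Log2 signal in each array for the 8 ribosomal genes whose groups did not overlap and for Rplp0 and Rps6, Runx3-/- (red, left) and WT (blue, right), with the mean and SD of 3 arrays beside the points and the same axis span in every panel. Rpl12 shows the largest difference and the widest Runx3-/- spread, while Rplp0 and Rps6 overlap between the genotypes.

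In the small subunit, the head gave the pair of genes with separate groups. Rps18 (probe set 10411393), which bridges the head to the large subunit, gave 12.30, 12.38 and 12.34 in Runx3-/- arrays, against 12.52, 12.51 and 12.43 in WT arrays, a log2 change of -0.15 (SE 0.07, adjusted p = 0.35, limma). Rps15 (probe set 10538629), near the decoding site, gave 12.89, 12.88 and 12.90 in Runx3-/- arrays, against 13.00, 12.99 and 12.99 in WT arrays. Its arrays were tight within each genotype, and the log2 change was -0.10 (SE 0.06, adjusted p = 0.47, limma), with an SE that limma moderates toward the spread of all probe sets. Over its alternatives the adjusted p of Rps15 ran from 0.093 to 0.76. Among the 10 tested head proteins the median change was -0.05, and Rps20 differed in sign from most. It gave 13.20, 13.13 and 13.23 in Runx3-/- arrays, against 13.13, 13.07 and 13.17 in WT arrays, higher in the Runx3-/- animal of all 3 litters but with overlapping groups and a log2 change of 0.06 (SE 0.07, adjusted p = 0.70, limma).

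With the probe set that stood for each gene, the 11 tested proteins of the 40S body and platform had a median change of -0.04. None of these probe sets had separate groups. Among all their probe sets, 2 of 8 for Rps6, 1 of 2 for Rps9 and 1 of 2 for Rps21 were lower and apart. Over all tested probe sets the share was 14.9%. Rps14, on the platform, gave 11.24, 11.34 and 11.14 in Runx3-/- arrays, against 11.59, 11.65 and 11.21 in WT arrays. The low WT 3 made the groups overlap, the log2 change was -0.25 (SE 0.13, adjusted p = 0.44, limma), and it was -0.38 without WT 3. Rpsa, also known as a laminin receptor precursor, gave 11.52, 11.64 and 11.37 in Runx3-/- arrays and 11.83, 11.58 and 11.68 in WT arrays, a change of -0.18 (SE 0.10). Rps21, its neighbor in the subunit, gave 10.86, 10.88 and 10.58 in Runx3-/- arrays and 11.00, 11.04 and 10.80 in WT arrays, a change of -0.17 (SE 0.11). The weaker probe sets of Rps14 and Rps21 had -0.38 and -0.27, while the 5 probe sets of Rpsa ran from -0.18 to 0.03. Without Runx3-/- 3, which had the lowest value of each of these 3 genes, the changes were -0.19 for Rps14, -0.11 for Rpsa and -0.07 for Rps21. Rps6, the substrate of the S6 kinases and the best known readout of mTOR signaling, was level: 13.66, 13.76 and 13.73 in Runx3-/- arrays, against 13.75, 13.74 and 13.78 in WT arrays, and the log2 change was -0.04 (SE 0.07, adjusted p = 0.83, limma), which turned to 0.0031 after median centring.

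Genes whose mutations cause Diamond-Blackfan anemia in humans, a failure of red cell production, were level too. The 9 tested members of that list, among them Rps19, Rpl5, Rps10 and Rps28, had changes of -0.08 to 0.00 with a median of -0.02, and none had separate groups. Of the 6 listed paralogs measured, Rpl7l1 and Rps27l reached background. Rpl32l, a like-named copy of Rpl32 that was not on that list, had a mean of 10.37 and a log2 change of -0.01. Rps27l, a p53-inducible relative of Rps27, gave 11.57, 11.29 and 11.28 in Runx3-/- arrays, against 11.31, 11.26 and 11.37 in WT arrays. Only Runx3-/- 1 stood out, and the log2 change of 0.06 (SE 0.10) became -0.03 without it. Rps19bp1 had -0.11 (SE 0.11, adjusted p = 0.68, limma).

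For 39 of the 63 genes more than 1 probe set carried the symbol, up to 14 for Rps12. These share sequence with each other and with the many processed pseudogenes of ribosomal proteins, and 19 of them had 6 values identical to another probe set, so they are not independent measurements. Their changes were close: the range within a gene had a median of 0.03, was under 0.1 for 33 of 39 genes, and reached 0.21 for Rpsa, whose 5 probe sets ran from -0.18 to 0.03. Rpl13 had -0.20 to -0.14 over 9 probe sets, Rps18 -0.16 to -0.13 over 7, Rpl36 -0.15 to -0.12 over 9 and Rpl9 -0.13 to -0.11 over 8. Rps6 had -0.04 to 0.00 over 8. Over all 213 tested member probe sets, 36 (16.9%) had separate groups, all lower in Runx3-/- DC, beside 14.9% of all tested probe sets. A negative change was found for 85.45% of them, and 0 passed an adjusted p of 0.05 (limma), with 1 at an unadjusted p of at most 0.05. The 239 probe sets that name a ribosomal gene among several genes had a median of -0.047, a range of -0.32 to 0.03, 227 negative changes (94.98%) and, by limma, 0 past an adjusted p of 0.05 and 1 at an unadjusted p of at most 0.05.

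**Figure D4:**
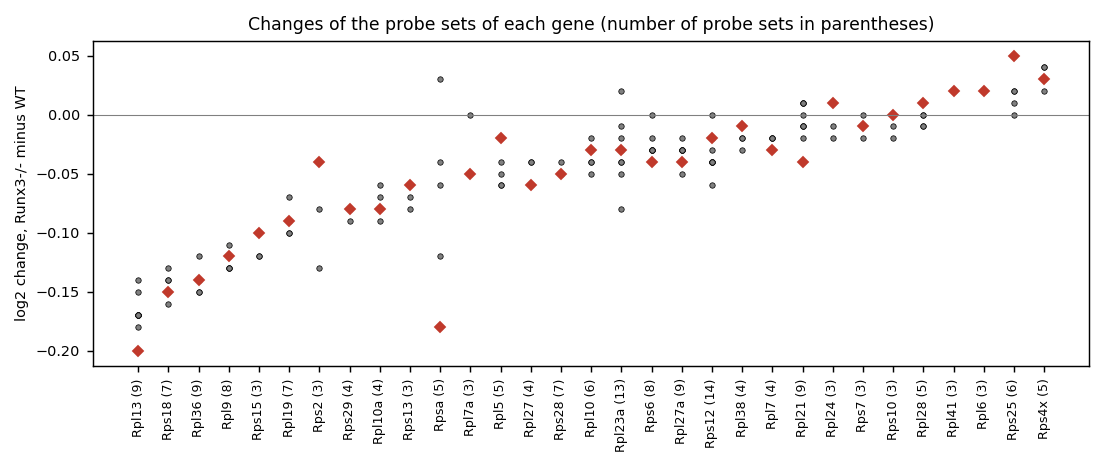
Log2 change, Runx3-/- minus WT, of every tested probe set of the ribosomal genes with 3 or more probe sets (number in parentheses), with the probe set that stands for the gene as a red diamond and the others as gray circles. Probe sets of 1 gene lie close together, apart from Rpsa, where they spread by 0.21.

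The TOP motif was looked for at the annotated starts of the members, as a C at the start base with at least 4 further pyrimidines (C or T) directly behind it. RefSeq starts of assembly GRCm38.p6 were found for 51 of 63 members. Among the tested ones, 10 of 47 genes (21.3%) had the motif at a start, beside 3.01% of all 27025 genes with a start in the table. An annotated start can lie some bases from the start that these cells use, so a missing match says only that these letters do not stand at that base. Small-subunit examples, shown because they span members that were level and one, Rps18, with separate groups, are windows of the same kind:
Rps6 (chr4:86857348-86857377, minus strand): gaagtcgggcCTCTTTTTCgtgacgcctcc
Rps10 (chr17:27635225-27635254, minus strand): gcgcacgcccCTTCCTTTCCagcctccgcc
Rps15a (chr7:118116128-118116157, minus strand): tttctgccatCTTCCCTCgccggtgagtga
Rps18 (chr17:33955646-33955675, minus strand): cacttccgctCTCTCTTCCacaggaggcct
Large-subunit examples were these, both level between the genotypes:
Rpl28 (chr7:4792955-4792984, plus strand): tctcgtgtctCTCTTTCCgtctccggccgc
Rpl38 (chr11:114668570-114668599, plus strand): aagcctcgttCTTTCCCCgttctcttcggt
With log2 changes rounded to 2 decimals, the 10 tested genes with the motif had a median of 0.00, with 5 below 0. The 37 without it had -0.04, with 27 below 0. Slightly negative changes were rounded to 0, such as Rps10 (-0.067%) and Rps15a (-0.0263%) with the motif. The same held without it for Rpl26 (-0.321%) and Rps3a1 (-0.145%). Both counts are therefore lower than unrounded values would give, and a difference between these sets was not tested. The RUNX motif TGTGGT, read on either strand in the window from 250 bases before to 50 bases after the start, was present in 5 of the 47 tested members (10.6%), beside 18.9% of all genes. Of the 7 genes with separate groups and a start in the table, 0 held it.

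Other parts of the translation machinery were compared from lists of genes. Among all 19149 tested probe sets, 0.05 before adjustment (limma) was reached by 5.59% in the higher and 10.3% in the lower direction. Of the initiation factors, 48 were tested, 0 passed an adjusted p of 0.05 (limma), 1 reached 0.05 before adjustment, and the median log2 change was 0.01. Of 76 mitochondrial ribosomal proteins, which serve a separate ribosome, 0 passed and 1 reached 0.05 before adjustment, with 38 positive and 38 negative changes. Of 20 cytosolic aminoacyl-tRNA synthetases, which load tRNAs, 0 passed, 1 reached 0.05 before adjustment, and the median was 0.03. Of 97 ribosome biogenesis factors 0 passed and 4 higher and 6 lower ones reached 0.05 before adjustment, with a median of -0.03, and the lowest p among them was that of Nop16, a nucleolar protein and MYC target in human cells. Nop16 gave 10.33, 10.08 and 10.41 in Runx3-/- arrays, against 10.72, 10.85 and 10.95 in WT arrays, a log2 change of -0.57 (SE 0.11, adjusted p = 0.077, limma). Of 16 other genes with TOP mRNAs, such as Eef1a1 (-0.07), 0 passed and 1 reached 0.05 before adjustment. Fau, which encodes a small-subunit protein as a fusion with a ubiquitin-like domain, had a log2 change of -0.03 that turned to 0.01 after median centring.

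Only 3 genes of all these lists passed, all lower in Runx3-/- DC. They were 1 of 20 growth regulators, 1 of 19 RNA polymerase I and III genes and 1 of 12 elongation and release factors. The lists of 48, 76, 20, 97 and 16 genes above gave 0. Of all tested probe sets 1.56% passed, made up of 0.7% that were lower and 0.856% that were higher, as shares of all tested probe sets. Myc, a transcription factor that drives ribosomal protein and ribosomal RNA genes in many cell types, averaged 9.66 ± 0.20 in Runx3-/- arrays and 10.57 ± 0.15 in WT arrays (SD, n = 3 each), a log2 change of -0.91 (SE 0.13, limma adjusted p = 0.034). Polr3g, a subunit of RNA polymerase III, which makes 5S ribosomal RNA and tRNAs, averaged 8.09 ± 0.15 in Runx3-/- arrays and 8.80 ± 0.087 in WT arrays (SD, n = 3 each), a log2 change of -0.71 (SE 0.10, limma adjusted p = 0.032). Eef2k, the kinase that inhibits elongation factor 2 and is listed by its symbol, averaged 8.57 ± 0.21 in Runx3-/- arrays and 9.44 ± 0.11 in WT arrays (SD, n = 3 each), a log2 change of -0.87 (SE 0.12, limma adjusted p = 0.033). The Runx3-/- and WT values of these 3 genes did not overlap, but the calls were lost with the litter block, where the adjusted p was 0.10, 0.11 and 0.12 for Myc, Polr3g and Eef2k, and with the methods' analysis of variance, where it was 0.14, 0.13 and 0.14. Leaving out single arrays gave an adjusted p of 0.065 to 0.16 for Myc. Polr3g and Eef2k kept the call only without Runx3-/- 2. The list of RNA polymerase I and III subunits, which also holds polymerase I factors such as Taf1a and Ubtf, had a median of -0.07, with 6 of 19 (31.58%) lower and apart, beside 14.9% of all tested probe sets, including Polr1a (-0.27, adjusted p = 0.20, limma) and Polr1b (-0.23, adjusted p = 0.21, limma). Of 20 growth regulators tested, Rptor, the mTOR complex subunit raptor, followed Myc with -0.49 (SE 0.11, adjusted p = 0.11, limma).

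**Figure D5:**
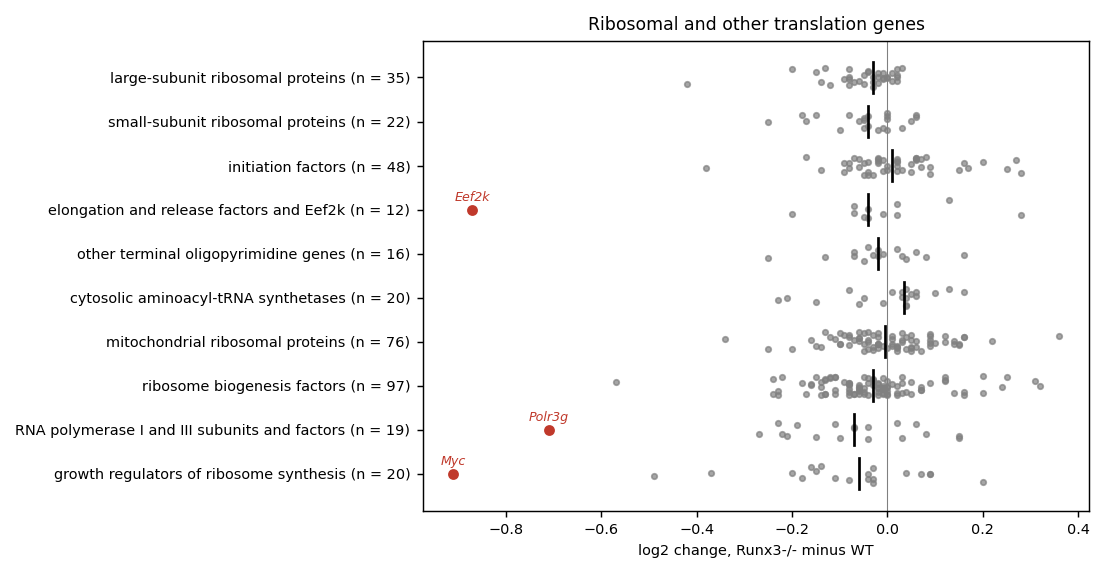
Log2 change, Runx3-/- minus WT, of each tested gene (points) of the ribosomal subunits and of other translation lists, with the list median as a black line. The ribosomal lists lie within -0.42 to 0.06, and the red points Myc, Polr3g and Eef2k are the 3 genes past an adjusted p of 0.05.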

How the data were processed

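RNA of 6 sorted CD4+ DC samples was measured on Affymetrix arrays. The authors ran RMA, corrected for GC content, in Partek, and deposited log2 signals. The submitters' processing notes name mm9, and software versions were not found in the sources. RMA puts the arrays on a common distribution, so a shift shared by most genes would be hidden. The methods name an exon array, while the probe set annotation is that of a gene-level array. Of 35399 probe sets, 21789 had 1 gene symbol, 1621 several and 11989 none.

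These values were not normalized again. A probe set was tested if 1 array or more reached a log2 signal of 6.5, the background of the methods, which left 19149. Runx3-/- and WT arrays were compared with limma 3.58.1 (lmFit, eBayes, two-sided) in R 4.3.3 with genotype as the only term. P-values were adjusted by Benjamini-Hochberg over all tested probe sets, with a threshold of 0.05. The scripts were tested on simulated data. Lists were described by counts and medians, with no test. Start windows came from the RefSeq table of GRCm38.p6, and no coordinates of the deposited probe sets were used. Figures were drawn with matplotlib 3.10.9 in Python 3.11.15.

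The members and lists were chosen with earlier results of these data known. Named were Runx3, Rplp0, Rps6, any called member, the 8 members of each subunit with the smallest p, the P stalk, the paralogs and non-subunit symbols with their parents, the members nearest the background, and up to 4 genes of each other list with the smallest p. Rps3a1, Rpl4, Rpl5, Rpl28 and Rpl38 and other members outside this rule were named after their values were seen. The replicate numbers pair the samples by litter in the labels. Deviations from the genotype means correlated at 0.16, 0.10 and 0.25 between the littermates of litters 1, 2 and 3. The highest correlation of the same Runx3-/- arrays with a WT array of another litter was -0.03, 0.10 and -0.07, no lower than between littermates in litter 2. Alternatives were the litter block, other filters, quantile normalization, median centring, a mean-variance trend, the methods' analysis of variance without moderation, the mean of all probe sets of a gene, and leaving out each array. Depth does not apply to arrays, and the number of arrays limits the precision.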

Additional observations from a re-analysis of the deposited data

How the results depend on the processing

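Over 14 alternatives, 0 members passed an adjusted p of 0.05 and 0 met the study's thresholds in every one. The count at an unadjusted p of at most 0.05 was 1 as reported, 6 with a mean-variance trend, 5 with the methods' analysis of variance and 0 to 2 otherwise. The share over all tested probe sets was not taken with the trend or the analysis of variance, so 6 and 5 cannot be set against it. Median centring moved the median log2 change of the members to 0.005, of the large subunit to 0.009 and of the small subunit to 0.004, and the count of members with separate groups to 5. With quantile normalization the member median was -0.034 and with the mean of all probe sets -0.033. Leaving out single arrays gave member medians of -0.049 to -0.024. It gave 8 to 20 members with separate groups, the highest without WT 3, 17 without Runx3-/- 2 and 13 without Runx3-/- 1. Fewer arrays separate more easily by construction. The share over all tested probe sets was not taken with an array left out, so these counts cannot be read as a result about the members. With the litter as a replicate block, pairing the littermates, Runx3 kept its log2 change of -1.98 at an adjusted p of 0.061. Leaving out single arrays gave -2.03 to -1.96, with an adjusted p of 0.053 without WT 1. The block left 0 probe sets past the adjusted threshold over the whole table, with 3430 at an unadjusted p of at most 0.05, where 2 members, Rpl12 and Rps14, stood. Over the 24 named ribosomal genes, 325 of 336 values under alternatives kept direction and call. Signs near 0 turned with median centring for Rps6 (0.0031), Rpl36a (0.03), Rpl7 (0.01) and Fau (0.01). Over the single arrays left out, changes ran from -0.08 to 0.0034 for Rplp0 (positive without WT 2), -0.05 to 0.08 for Rplp2 (negative without WT 3), -0.03 to 0.11 for Rps27l (negative without Runx3-/- 1), -0.19 to 0.02 for Rpl22 (positive without WT 1), -0.08 to 0.06 for Rpl7 (positive without Runx3-/- 3), -0.05 to 0.04 for Rpl36a (positive without Runx3-/- 3, WT 1 and WT 2) and -0.06 to 0.01 for Fau (positive without Runx3-/- 2). None of these passed a threshold, and the cause was not tested.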
